A study of Mus musculus with 12 samples.

Results

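Neuropilins, semaphorins and plexins make up one system of cell-surface and secreted guidance molecules, and 9 of its genes were followed here through regulatory T cell (Treg) libraries of mouse lymph node and tumor. The 9 are the neuropilins Nrp1 and Nrp2, the class 4 semaphorins Sema4a, Sema4b and Sema4d, and the plexins Plxna1, Plxnb2, Plxnc1 and Plxnd1. They were taken by name from the 55413 genes of the deposited tables. All 9 passed the filter on low counts that left 15705 genes for testing.

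Semaphorins are ligands, some secreted and some held in the membrane, and plexins are their main receptors, which carry a GTPase-activating domain for small G proteins inside the cell. Neuropilins have little signalling capacity of their own and serve as coreceptors, binding class 3 semaphorins together with plexins and binding vascular endothelial growth factor together with its receptors. In mouse T cells Nrp1 is widely used as a surface marker of thymus-derived Treg, and Sema4a has been described as a ligand of Nrp1 on Treg in tumors. The same receptors are also made by macrophages, endothelial cells and epithelial cells.

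The study transferred T cells into TCRbd-/- mice, a strain that as background lacks T cells of its own and keeps its B cells and myeloid cells. The cells given were thymus-derived Treg (tTreg) sorted from spleen and lymph nodes of CD45.1 Foxp3YFP-cre mice, in which YFP-Cre is made wherever Foxp3 is, with conventional Foxp3-negative CD4+ T cells and CD8+ T cells of CD45.2 Foxp3YFP-cre mice, at a ratio of 1:10:8. The mouse hepatoma line Hepa1-6 was inoculated 3 days after the transfer, and tumors were taken on day 18 after inoculation. There were 3 libraries of tumor pTreg, the label for Treg formed outside the thymus, and 5 of tumor tTreg, both sorted from the CD4+ cells of tumor-infiltrating lymphocytes. The 4 libraries of LN Treg came from lymph nodes of tumor-free mice given no treatment and held all Treg together. Every library has the same genotype label, Foxp3YFP-cre and TCRbd-/- mice, so that label does not say which strain the LN Treg came from, and age is not stated. Nothing states that libraries came from separate animals, so p-values measure the spread between these libraries, which may be technical.

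Library totals ran from 14573864 to 17323894 counts in LN Treg, from 17964262 to 18180959 in pTreg and from 18107272 to 18510923 in tTreg. The labelled cell type was checked against markers in summed CPM, the usual depth-scaled count, here relative to the library total. The 18 pan-T genes, led by Lck and Cd2, summed to 6344 ± 71.0 (SD, n = 4) in LN Treg, 1324 ± 12.4 (n = 3) in pTreg and 134 ± 3.12 (n = 5) in tTreg. The 4 CD3 genes summed to 1247, 253 and 21.6 CPM in the same order, and the 4 Treg genes, led by Ikzf2 and Il2ra, to 2438, 257 and 74.7 CPM. In the tumor groups the 14 macrophage and monocyte genes, led by Apoe and Ctss, were the largest marker sum, at 309 CPM in LN Treg, 11868 in pTreg and 12015 in tTreg. In LN Treg most of that sum was Ctss, at 253 CPM. The 10 hepatoma and hepatocyte genes, led by Alb and Trf, summed to 8.46, 5572 and 8174 CPM, and the 9 fibroblast genes, led by Col3a1 and Dcn, to 2.71, 150 and 757 CPM. Sums were 264, 301 and 326 CPM for the 10 dendritic genes (Itgax and Ccr7 highest), 2.28, 46.7 and 44.8 CPM for the 8 neutrophil genes (Csf3r and Mmp8), 13.9, 4.19 and 4.40 CPM for the 8 B and plasma cell genes (Cd79b and Cd79a), and 190, 45.1 and 26.0 CPM for the 8 endothelial genes (Pecam1 and Vwf). The like dendritic sums rest on different genes: Ccr7 was at 253, 13.6 and 9.44 CPM and Itgax at 1.16, 266 and 296 CPM. The endothelial sum runs against most of its genes. Of 7 tested, 6 were higher and 1 lower in each tumor group than in LN Treg (edgeR adjusted p below 0.05). Their median log2 fold changes were 3.70 in pTreg and 2.72 in tTreg. No count was found in LN Treg for Apoa2, Fgb, Col3a1, Lum, Pdgfra, Tek, Emcn, Cldn5, Ly6g or Mpo, nor in either tumor group for Serpina1a. Between tumor pTreg and tumor tTreg, all 18 pan-T genes were higher in pTreg with a median log2 fold change of 3.42, while the 14 macrophage genes had a median of -0.048 with 1 called higher and 4 lower (called means an edgeR adjusted p below 0.05), the 6 hepatoma genes tested were all lower (median -0.60), and 8 of 9 fibroblast genes were lower (median -2.85). In these bulk libraries fewer cells of a type and less RNA per cell cannot be told apart. The T cell genes make up so different a part of each library that 2 scales are given for each of the 9 genes: CPM or a fold change relative to the library, and a count for every 100 counts of pan-T genes.

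The main findings on the library scale were these. Plxnb2, Plxna1 and Nrp2 were higher in both tumor groups than in LN Treg, by 65.7-, 5.88- and 3.52-fold in tumor pTreg and by 78.0-, 6.57- and 3.45-fold in tumor tTreg, and they were higher on the pan-T scale as well. Plxnd1 was also called higher in both tumor groups on both scales, by less, though not on the level per transcript length given below. On the library scale 47.6% of all tested genes were called higher and 39.8% lower in pTreg than in LN Treg, and 48.1% and 42.3% in tTreg. On the pan-T scale 91.3% and 96.7% were called higher in pTreg and tTreg. Being called higher there thus does not set Plxnb2, Plxna1, Nrp2 and Plxnd1 apart. Nrp1, Sema4d and Plxnc1 were lower in both tumor groups than in LN Treg on the library scale and higher on the pan-T scale. Within the tumor, Nrp1, Sema4a, Sema4d, Plxnc1 and Plxnd1 were higher in pTreg than in tTreg, led by Sema4d with a log2 fold change of 1.04, and Plxna1 and Plxnb2 were lower, where 26.8% of all tested genes were called higher and 25.3% lower. Scaled to pan-T counts, all 9 were lower in pTreg than in tTreg of the tumor, as were 97.0% of all tested genes.

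**Figure D1:**
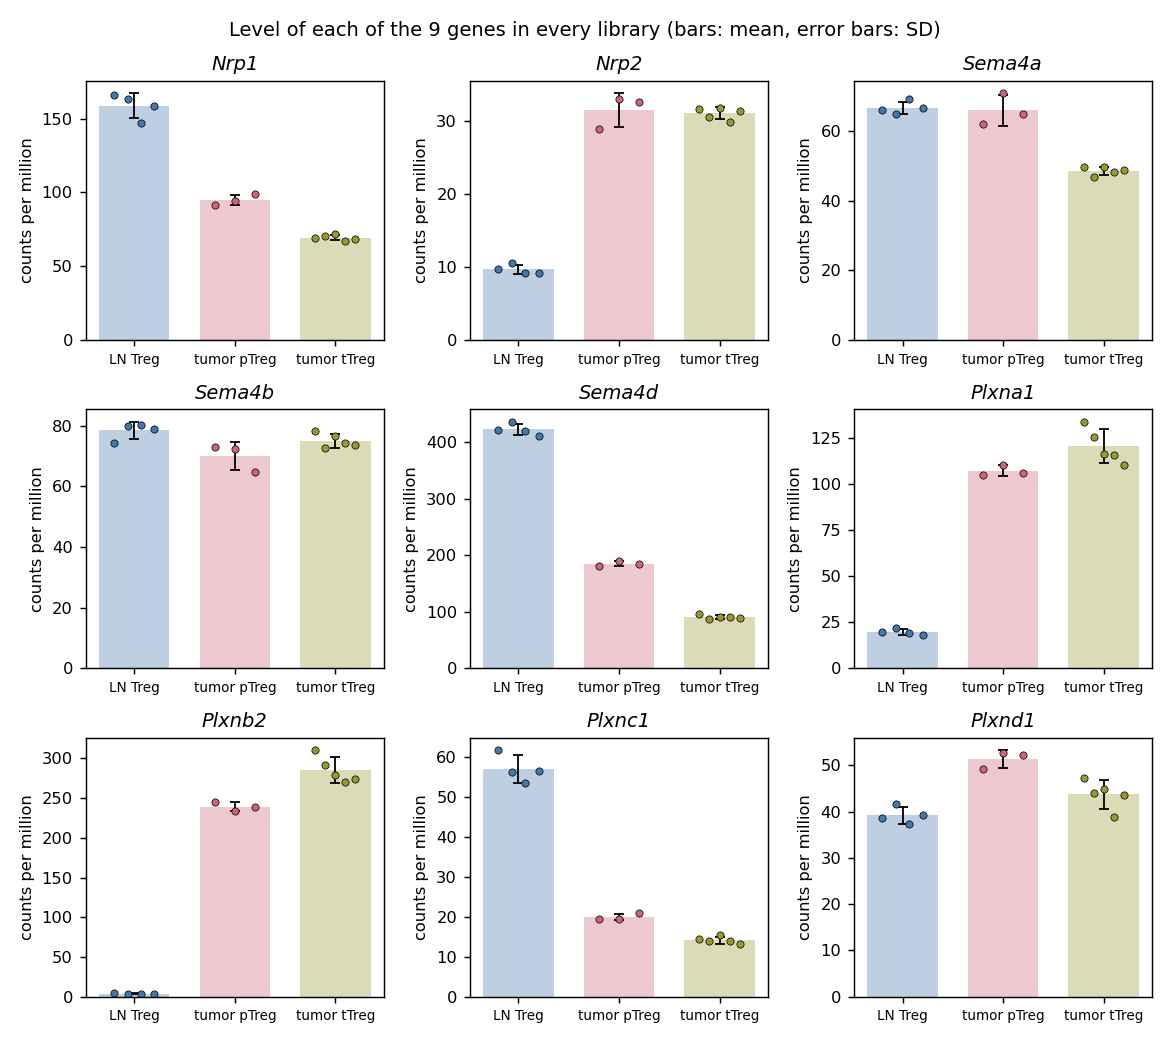
Level of each gene in CPM of the library total, 1 point a library, bars at the group mean and error bars of 1 SD (LN Treg n = 4, tumor pTreg n = 3, tumor tTreg n = 5). Plxnb2 is at 3.50 to 4.71 CPM in LN Treg and at 233.6 to 310.1 CPM in the tumor libraries, while Nrp1, Sema4d and Plxnc1 step down from LN Treg to tumor pTreg to tumor tTreg without overlap.

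Nrp1, the neuropilin used as a marker of thymic Treg, lies at chr8:128358604-128503363 on the plus strand of GRCm38, and is annotated as protein-coding in GENCODE, as are the other 8. Its level in the 4 LN Treg libraries was 166.3, 163.2, 147.4 and 159.0 CPM. In tumor pTreg it was 91.7, 94.0 and 98.7 CPM, and in tumor tTreg 69.4, 70.3, 72.0, 67.1 and 68.4 CPM. The 3 groups did not overlap: every LN Treg library was above every pTreg library, and every pTreg library above every tTreg library. The log2 fold change was 0.46 for pTreg against tTreg (SE 0.0393, edgeR quasi-likelihood test, Benjamini-Hochberg adjusted p = 7.38e-11), -0.64 for pTreg against LN Treg (SE 0.0388, adjusted p = 3.98e-15) and -1.10 for tTreg against LN Treg (SE 0.0346, adjusted p = 3.49e-22). Per 100 pan-T counts the order was turned round, with 2.51 ± 0.1495 Nrp1 counts in LN Treg, 7.16 ± 0.249 in pTreg and 52.0 ± 2.31 in tTreg. Set against Foxp3, the transcription factor that defines Treg, there were 0.361 ± 0.0188 Nrp1 counts for each Foxp3 count in LN Treg, 4.66 ± 0.0564 in pTreg and 7.97 ± 0.522 in tTreg, from 6637 to 7627, 359 to 378 and 147 to 169 Foxp3 counts a library. Nrp1 counts thus outnumbered Foxp3 counts in all 8 tumor libraries and in none of the 4 LN Treg libraries. Foxp3 fell further than Nrp1, from 441 CPM in LN Treg to 20.3 in pTreg and 8.74 in tTreg. How many other genes outnumber Foxp3 in the same way was not counted. The macrophage sum given above also separates the tumor libraries from LN Treg, and its part in these ratios was not tested.

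Nrp2, the second neuropilin, which as background binds Sema3f and Sema3c and the lymphatic growth factor Vegfc, lies at chr1:62703285-62818695 on the plus strand. It stood at 9.71, 10.6, 9.12 and 9.18 CPM in LN Treg, 28.8, 33.0 and 32.6 CPM in tumor pTreg, and 31.7, 30.5, 31.8, 29.9 and 31.3 CPM in tumor tTreg. All 8 tumor libraries were above all 4 LN Treg libraries, and the tumor groups overlapped. Nrp2 rose in pTreg (log2 fold change 1.81, adjusted p = 2.24e-20) and in tTreg (1.79, adjusted p = 2.09e-21) against LN Treg. The difference between pTreg and tTreg was 0.026 with an SE of 0.0520 (adjusted p = 0.699), and its sign changed with the size factors used. Per 100 pan-T counts Nrp2 was at 0.152 ± 0.0106 in LN Treg, 2.38 ± 0.154 in pTreg and 23.3 ± 0.929 in tTreg. On the per-length scale (FPKM, fragments per kilobase of transcript, scaled to library depth), Nrp1 exceeded Nrp2 by 31.3 ± 1.60 times in LN Treg, 5.70 ± 0.344 times in pTreg and 4.23 ± 0.0971 times in tTreg.

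Sema4a, a membrane semaphorin described as binding Nrp1, plexins of the B and D classes and Tim-2, lies at chr3:88435959-88461182 on the minus strand. It measured 66.0, 64.8, 69.0 and 66.5 CPM in LN Treg, 62.1, 70.8 and 64.7 CPM in tumor pTreg, and 49.6, 46.8, 49.5, 48.1 and 48.7 CPM in tumor tTreg. The tTreg libraries were lowest throughout, and pTreg overlapped with LN Treg. The log2 fold change was 0.45 for pTreg against tTreg (SE 0.0405, adjusted p = 2.12e-10) and -0.36 for tTreg against LN Treg (adjusted p = 6.67e-10). For pTreg against LN Treg it was 0.087 (SE 0.0414), and the adjusted p of 0.0508 lay just outside the threshold of 0.05. That adjusted p became 0.00818 without pTreg replicate 1, 0.0399 without LN Treg replicate 3, 0.0464 without tTreg replicate 1 and 0.0482 without tTreg replicate 3. The sign was not stable: it was -0.017 with library totals (adjusted p = 0.706) and -0.043 on log2(FPKM + 1) by limma (adjusted p = 0.654), and the mean CPM was 65.9 in pTreg and 66.6 in LN Treg. Scaled to pan-T counts Sema4a stood at 1.05 ± 0.0240, 4.97 ± 0.291 and 36.4 ± 1.12 per 100 in LN Treg, tumor pTreg and tumor tTreg.

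Sema4b, another membrane semaphorin, lies at chr7:80186841-80226527 on the plus strand and was the gene of the 9 whose library-scale level differed least between the groups. Levels were 74.2, 80.0, 80.3 and 79.0 CPM in LN Treg, 72.8, 72.4 and 64.7 CPM in tumor pTreg, and 78.3, 72.7, 76.6, 74.2 and 73.5 CPM in tumor tTreg. The tTreg range overlapped with both other groups, and all 3 pTreg libraries were below all 4 LN Treg libraries. None of the 3 comparisons was called: log2 fold changes were -0.094 for pTreg against tTreg (SE 0.0397, adjusted p = 0.0500489), -0.059 for pTreg against LN Treg (adjusted p = 0.186) and 0.035 for tTreg against LN Treg (adjusted p = 0.365). The first of these sat on the threshold and was called lower with RLE size factors (adjusted p = 0.00534), DESeq2 (0.0134), library totals (0.0402) and a filter at 5 CPM (0.0403), and also without pTreg replicate 1 (0.0267), pTreg replicate 2 (0.0468), tTreg replicate 2 (0.0426) or LN Treg replicate 1 (0.0448). The second was called lower, with a larger difference, with library totals (-0.16, adjusted p = 0.000961), with a filter at 5 CPM (-0.10, adjusted p = 0.0214) and by limma on FPKM (-0.16 to -0.17, adjusted p = 0.00831 to 0.0130). Scaled to pan-T counts it was at 1.24 ± 0.0397, 5.28 ± 0.359 and 56.2 ± 2.45 per 100 in the same order.

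Sema4d, also known as CD100, is the semaphorin made abundantly by resting T cells, and its known receptors are B-class plexins and CD72. The gene lies at chr13:51685529-51793747 on the minus strand. It was at 421.8, 436.1, 420.3 and 411.8 CPM in LN Treg, 181.8, 189.7 and 184.8 CPM in tumor pTreg, and 96.0, 87.1, 90.4, 91.7 and 89.2 CPM in tumor tTreg. The 3 groups formed separate steps, LN Treg highest and tTreg lowest. Sema4d had the largest log2 fold change of the 9 between the tumor groups, 1.04 (SE 0.0313, adjusted p = 2.14e-21), and fell by 1.08 in pTreg (adjusted p = 4.09e-23) and by 2.12 in tTreg (adjusted p = 1.36e-31) against LN Treg. Against pan-T counts the direction was the opposite, with 6.66, 14.0 and 68.1 Sema4d counts per 100 in LN Treg, tumor pTreg and tumor tTreg. Sema4d was thus lower in the groups with fewer pan-T counts, though the pan-T sum fell further than Sema4d did. Whether the fall of Sema4d is linked to that of the pan-T sum was not tested.

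Plxna1, a class A plexin that pairs with neuropilins for class 3 semaphorins and binds Sema6d in myeloid cells, lies at chr6:89316314-89362620 on the minus strand. It was measured at 19.8, 21.8, 19.0 and 18.2 CPM in LN Treg, 104.9, 110.7 and 106.3 CPM in tumor pTreg, and 134.0, 125.9, 116.7, 115.9 and 110.7 CPM in tumor tTreg. The LN Treg libraries were lowest by a wide margin, while the highest pTreg library came level with the lowest tTreg library at this rounding. It rose in pTreg (log2 fold change 2.56, adjusted p = 1.48e-25) and in tTreg (2.72, adjusted p = 2.06e-27) against LN Treg, and was lower in pTreg than in tTreg (-0.16, SE 0.0435, adjusted p = 0.00267). For every 100 pan-T counts there were 0.310 ± 0.0230 Plxna1 counts in LN Treg, 8.10 ± 0.158 in pTreg and 90.5 ± 8.82 in tTreg. In FPKM the tumor groups overlapped and the last difference was not called (limma on log2(FPKM + 1), -0.043, adjusted p = 0.897). Gm26811, an antisense gene whose exons overlap those of Plxna1, reached at most 1.49 CPM, and as no source used here gives the strand setting of the counting, reads of the pair cannot be told apart.

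Plxnb2, a class B plexin and receptor for Sema4c, Sema4d and Sema4a that macrophages and epithelial cells express, lies at chr15:89155549-89180788 on the minus strand. In LN Treg it was near the bottom of the list at 4.71, 3.50, 3.64 and 3.72 CPM, from 51 to 80 counts a library. It reached 244.7, 233.6 and 238.6 CPM in tumor pTreg and 310.1, 291.8, 279.6, 270.4 and 273.4 CPM in tumor tTreg. This was the largest change of any of the 9 genes against LN Treg, with log2 fold changes of 6.04 in pTreg (adjusted p = 2.18e-33) and 6.28 in tTreg (adjusted p = 8.03e-35). Between the tumor groups Plxnb2 was lower in pTreg (-0.25, SE 0.0352, adjusted p = 9.61e-07) and no pTreg library reached any tTreg library. The FPKM of the same pair differed by -0.33 on the log2(FPKM + 1) scale with an adjusted p of 0.153 by limma. Per 100 pan-T counts there were 0.0614 ± 0.00902 Plxnb2 counts in LN Treg, 18.0 ± 0.588 in pTreg and 214 ± 16.7 in tTreg, so in tumor tTreg this 1 gene had more counts than the 18 pan-T genes together. The 14 macrophage genes and the 6 hepatoma genes tested were likewise all higher in both tumor groups than in LN Treg, and their part in the Plxnb2 level was not tested.

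Plxnc1, the receptor of Sema7a, lies at chr10:94790866-94944835 on the minus strand and moved the other way on the library scale. It was at 61.7, 56.3, 53.5 and 56.6 CPM in LN Treg, 19.5, 19.6 and 20.9 CPM in tumor pTreg, and 14.4, 14.0, 15.6, 14.0 and 13.1 CPM in tumor tTreg. The groups did not overlap. Log2 fold changes were 0.50 for pTreg against tTreg (SE 0.0660, adjusted p = 2.76e-07), -1.41 for pTreg against LN Treg (adjusted p = 3.10e-19) and -1.91 for tTreg against LN Treg (adjusted p = 8.86e-24). Per 100 pan-T counts Plxnc1 was at 0.899 ± 0.0606, 1.51 ± 0.0581 and 10.7 ± 0.771 in LN Treg, tumor pTreg and tumor tTreg, the smallest of the 9 rises against LN Treg in pTreg on that scale (log2 fold change 0.75).

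Plxnd1, the receptor of Sema3e and one of the receptors described for Sema4a, lies at chr6:115954811-115995005 on the minus strand. It measured 38.6, 41.6, 37.3 and 39.3 CPM in LN Treg, 49.1, 52.5 and 52.3 CPM in tumor pTreg, and 47.2, 44.0, 44.8, 38.8 and 43.6 CPM in tumor tTreg. The pTreg libraries were highest, and tTreg overlapped with LN Treg through its replicate 4. Plxnd1 was higher in pTreg than in tTreg (0.24, SE 0.0474, adjusted p = 1.07e-04) and higher than in LN Treg in both pTreg (0.50, adjusted p = 5.73e-10) and tTreg (0.26, adjusted p = 9.78e-06). None of these 3 was called on FPKM, where adjusted p was 0.747, 0.201 and 0.346 by limma on log2(FPKM + 1). On the pan-T scale it was at 0.618 ± 0.0306, 3.87 ± 0.111 and 32.8 ± 2.86 per 100 in the 3 groups.

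The sequence upstream of 3 of these genes is shown, chosen by their library-scale change against LN Treg. Plxnb2 and Plxnc1 had the largest rise and the largest fall among the 6 receptors, and Nrp2 was the neuropilin that rose. RefSeq's promoter table for GRCm38.p6 matched 8 of the 9 genes by symbol, all but Plxna1. The part of the 250 bases before the RefSeq start that lies outside the GENCODE gene is given 5′ to 3′ on the gene's strand, and capitals mark matches on either strand to GGGCGG (a GC box), GAGGAA (the core bound by PU.1, the myeloid ETS factor) or GAAANNGAAA (an interferon response type). TGTGGT (RUNX type) and TAAACA (forkhead type) were also searched.
Plxnb2, chr15:89180789-89181038, minus strand: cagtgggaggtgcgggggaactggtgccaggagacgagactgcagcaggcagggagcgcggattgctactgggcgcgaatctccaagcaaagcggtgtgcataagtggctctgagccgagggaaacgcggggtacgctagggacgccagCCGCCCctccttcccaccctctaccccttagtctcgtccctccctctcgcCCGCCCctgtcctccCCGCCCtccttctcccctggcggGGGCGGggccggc
Plxnc1, chr10:94944846-94945095, minus strand: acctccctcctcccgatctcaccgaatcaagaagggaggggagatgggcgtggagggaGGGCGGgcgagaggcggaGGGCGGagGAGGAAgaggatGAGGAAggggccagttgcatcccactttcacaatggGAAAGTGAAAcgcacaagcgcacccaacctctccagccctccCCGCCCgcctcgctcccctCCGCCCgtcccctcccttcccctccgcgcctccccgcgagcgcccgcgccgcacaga
Nrp2, chr1:62703067-62703284, plus strand: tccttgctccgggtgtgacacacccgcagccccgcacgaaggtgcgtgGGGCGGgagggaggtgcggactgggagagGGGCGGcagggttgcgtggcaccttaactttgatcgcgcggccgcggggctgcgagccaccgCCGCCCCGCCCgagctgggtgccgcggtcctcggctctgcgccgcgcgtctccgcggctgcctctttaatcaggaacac
All 3 windows held 4 GC box matches, and in Nrp2 a pair of them overlap. Plxnc1 also held 2 GAGGAA matches and 1 GAAANNGAAA match, and no match to TGTGGT or TAAACA was found in any of the 3. Over 32851 upstream windows of the table, 32.7% held GGGCGG, 23.3% GAGGAA, 2.98% GAAANNGAAA, 14.0% TGTGGT and 12.03% TAAACA. The GC content was 69.2%, 68.8% and 72.5% in the 3 windows in the order printed, against a median of 52.4%. A match is a description of letters and does not show binding.

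Read against all tested genes, the counts of the 9 were as follows. Between tumor pTreg and tumor tTreg 5 of the 9 were called higher and 2 lower on the library scale, beside 26.8% and 25.3% of all genes tested, while scaling to pan-T counts put all 9 lower. The median log2 fold change of the 9 was 0.24 and that of all genes -0.008. Against LN Treg, 4 were called higher and 3 lower in pTreg, beside 47.6% and 39.8% of all genes, with medians of 0.087 and 0.12. In tTreg 4 were called higher and 4 lower, beside 48.1% and 42.3%, with medians of 0.035 and 0.10. These last 2 comparisons share the LN Treg libraries, and scaling to pan-T counts put all 9 higher in both.

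**Figure D2:**
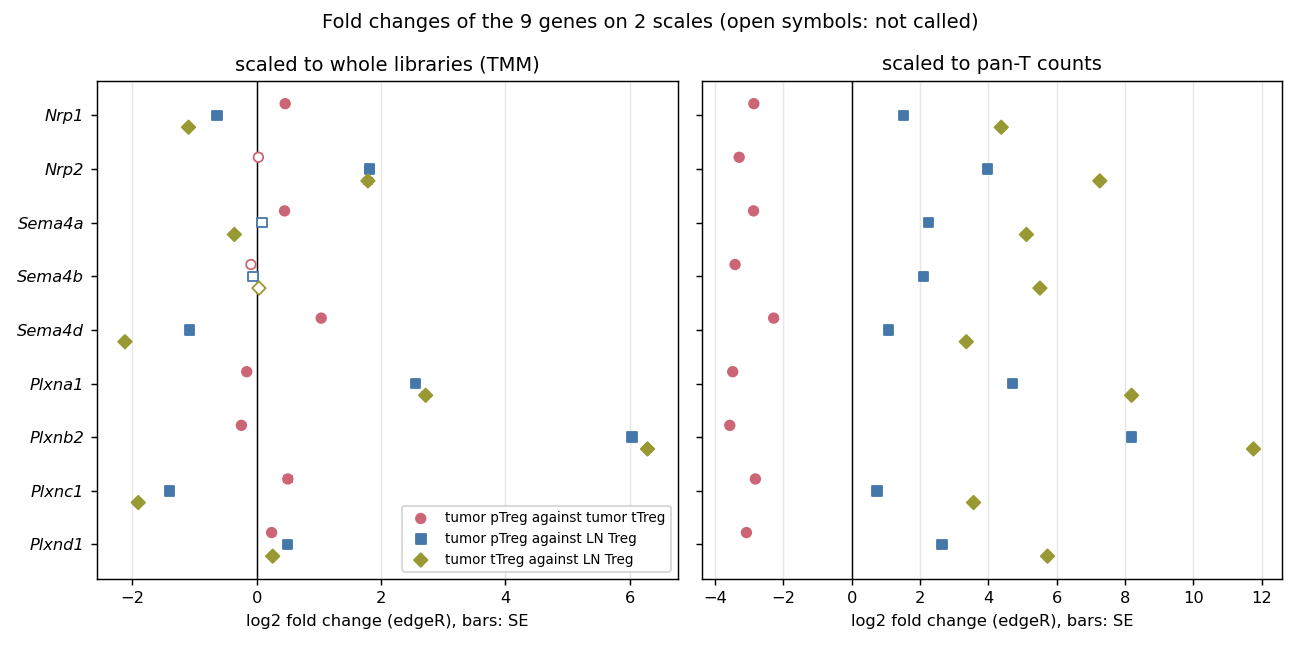
Log2 fold changes of the 9 genes from edgeR with bars of 1 SE (most are smaller than the symbol), scaled to whole libraries on the left and to pan-T counts on the right, with open symbols for values not called at adjusted p below 0.05. On the left the genes scatter on both sides of 0, while on the right all 9 lie below 0 for pTreg against tTreg and above 0 for both comparisons with LN Treg.

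On the pan-T scale nearly every gene moved with the 9. For pTreg against tTreg, 0.573% of all genes were called higher and 97.0% lower, the median of all genes was -3.33, and the 9 ran from -3.57 (Plxnb2) to -2.28 (Sema4d) with a median of -3.08. Relative to that median, Sema4d, Plxnc1, Nrp1, Sema4a, Plxnd1 and Nrp2 were higher in pTreg, and Plxnb2, Plxna1 and Sema4b were lower. Scaling to pan-T counts shifts the fold changes of the 9 by nearly the same amount. Their order is therefore that of the library scale by construction and is not a separate result. For pTreg against LN Treg 91.3% were called higher and 4.15% lower, with a median of 2.27 over all genes and a range of 0.75 (Plxnc1) to 8.19 (Plxnb2) over the 9. For tTreg against LN Treg the figures were 96.7% and 1.03%, a median of 5.57, and a range of 3.35 (Sema4d) to 11.8 (Plxnb2).

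The level per length put the genes in a different order in each group. In LN Treg Sema4d was highest at 108 ± 2.33 FPKM, followed by Nrp1 at 48.8 ± 2.68, Sema4a at 37.2 ± 1.61 and Sema4b at 23.1 ± 0.716, each separate from the next. Plxnc1 (15.4 ± 4.24) and Plxnd1 (11.9 ± 2.30) overlapped, Plxna1 was at 2.86 ± 0.755, and Nrp2 (1.56 ± 0.113) and Plxnb2 (1.29 ± 0.567) overlapped at the bottom. In tumor pTreg Plxnb2 led at 49.1 ± 0.588 FPKM, just above Sema4d at 46.9 ± 0.859, with Sema4a at 36.1 ± 2.92, Nrp1 at 28.9 ± 1.10 and Sema4b at 20.5 ± 1.52. Plxna1 (14.9 ± 2.32) and Plxnd1 (14.1 ± 2.32) overlapped, and Nrp2 (5.09 ± 0.405) and Plxnc1 (3.53 ± 0.637) were lowest. In tumor tTreg Plxnb2 stood alone at 62.1 ± 4.12 FPKM, and the next 4, Sema4a at 26.0 ± 2.05, Sema4d at 23.0 ± 1.17, Sema4b at 21.9 ± 0.725 and Nrp1 at 21.2 ± 0.576, each overlapped with its neighbour. Plxna1 (15.3 ± 1.52) overlapped with Plxnd1 (13.2 ± 1.35), and Nrp2 (5.01 ± 0.122) and Plxnc1 (2.27 ± 0.384) came last. Plxnb2 thus went from last of 9 in LN Treg to first in both tumor groups, and Plxnc1 from rank 5 to last.

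The makeup of each subfamily within a library does not depend on how libraries are scaled. Of the summed neuropilin FPKM, Nrp1 made up 96.9 ± 0.156% in LN Treg, 85.1 ± 0.765% in pTreg and 80.9 ± 0.355% in tTreg. Of the 3 class 4 semaphorins, Sema4d went from 64.2 ± 1.10% in LN Treg to 45.3 ± 1.07% in pTreg and 32.4 ± 0.676% in tTreg. Sema4b went from 13.7 ± 0.350% to 19.8 ± 1.55% and 31.0 ± 0.799%, and Sema4a from 22.1 ± 0.816% to 34.9 ± 1.71% and 36.7 ± 1.25%, so the 3 were near equal in tTreg. Of the 4 plexins, Plxnb2 went from 4.08 ± 1.56% in LN Treg to 60.2 ± 1.28% in pTreg and 66.9 ± 0.472% in tTreg. Plxnc1 went from 48.4 ± 8.94% to 4.33 ± 0.848% and 2.46 ± 0.520%, Plxnd1 from 38.1 ± 7.38% to 17.3 ± 2.79% and 14.2 ± 0.933%, and Plxna1 from 9.41 ± 3.80% to 18.2 ± 2.66% and 16.5 ± 1.07%. The summed FPKM itself was 31.5 ± 3.56, 81.7 ± 1.18 and 92.9 ± 6.13 for the plexins and 168.2 ± 2.79, 103.5 ± 3.70 and 70.9 ± 3.66 for the semaphorins in LN Treg, pTreg and tTreg. The 8 shares were compared in 3 ways, 24 two-sided exact permutation tests with Benjamini-Hochberg adjustment. For tTreg against LN Treg all 8 gave the smallest p that 5 against 4 libraries allow, 0.0159 (adjusted p = 0.0476). For pTreg against LN Treg all 8 gave the smallest p of 3 against 4 in the exact test, 0.0571 (adjusted 0.0653), a design that cannot reach 0.05. For pTreg against tTreg the shares of Nrp1, Sema4b, Sema4d, Plxnb2 and Plxnc1 gave the smallest exact p of 0.0357 (adjusted 0.0653) with no overlap of the groups, and those of Sema4a (exact p = 0.179), Plxnd1 (0.107) and Plxna1 (0.321) overlapped. Shares of a subfamily add up to a fixed total, so the 24 tests are not independent. No like share over all genes was computed. On the library scale 48.1% and 42.3% of all genes were called higher and lower in tTreg against LN Treg. For pTreg these were 47.6% and 39.8% against LN Treg, and 26.8% and 25.3% against tTreg.

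**Figure D3:**
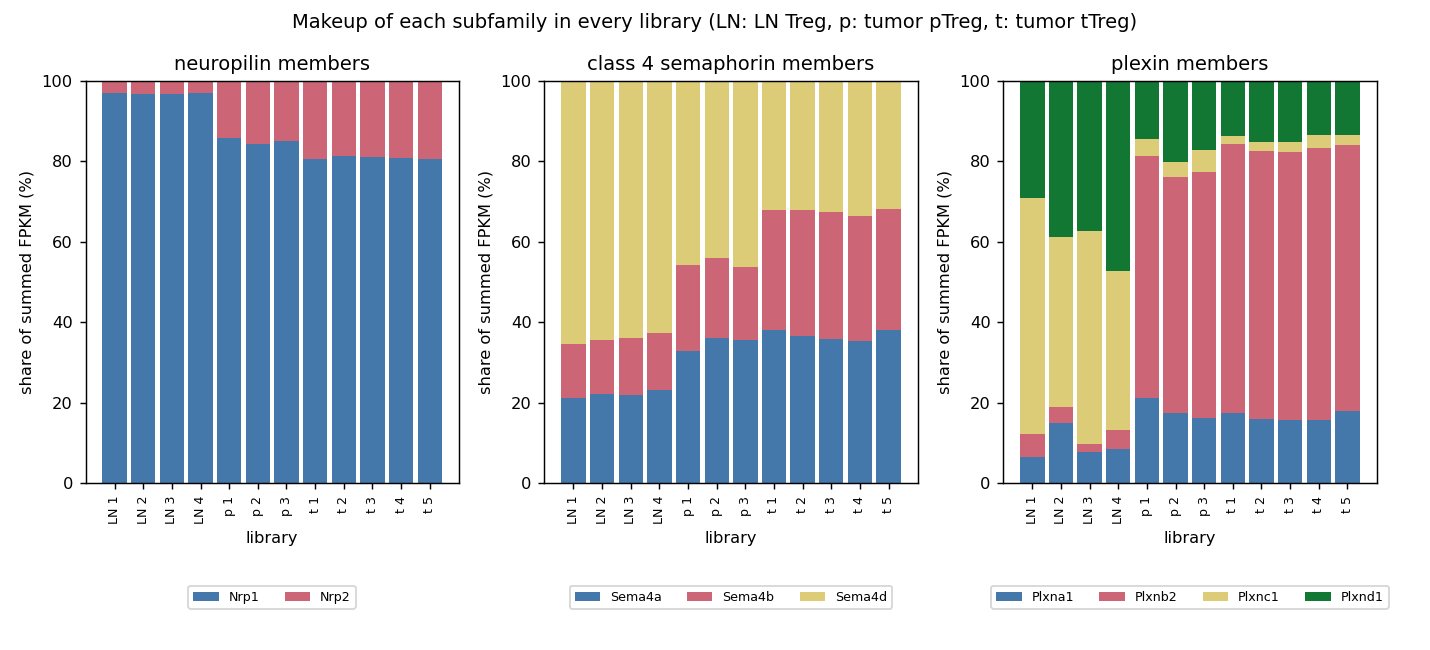
Share of each gene in the summed FPKM of its subfamily, in percent, for each of the 12 libraries, which add up to 100 within a panel. In the plexin panel Plxnc1 and Plxnd1 fill most of the 4 LN Treg bars and Plxnb2 most of the 8 tumor bars, and in the semaphorin panel Sema4d shrinks from LN Treg to pTreg to tTreg.

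Counts and FPKM of 1 library also imply the length that the authors' quantification used for a gene, as CPM divided by FPKM. This length need not equal that of an annotated transcript. It was nearly fixed for Nrp1 (3243 to 3286 bases over 12 libraries), Nrp2 (6105 to 6247), Sema4b (3371 to 3449) and Sema4d (3888 to 4062), and ran from 1703 to 1985 bases for Sema4a. For the plexins it varied between replicates: 5493 to 8747 bases for Plxna1, 2613 to 4107 for Plxnd1, and 2389 to 5510 for Plxnb2 within LN Treg, against 4434 to 4931 in the tumor libraries. For Plxnc1 it was 3034 to 5030 bases in LN Treg, 4920 to 6446 in pTreg and 4750 to 7022 in tTreg. Plexin levels per length therefore carry the spread of this length as well as that of the counts. The Plxnb2 lengths in LN Treg also rest on few counts, 51 to 80 a library.

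**Figure D4:**
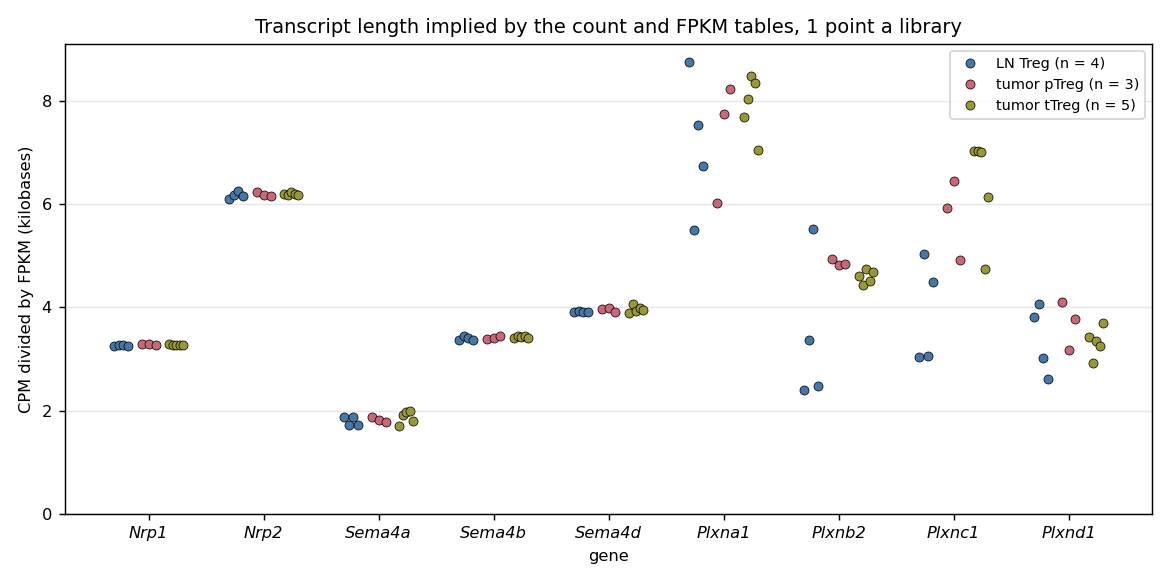
Transcript length implied by the deposited values, CPM divided by FPKM in kilobases, 1 point a library for each gene. Points lie on top of each other for Nrp1, Nrp2, Sema4b and Sema4d and spread over kilobases for Plxna1, Plxnb2 and Plxnc1.

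The rest of the family was taken from a list of 31 neuropilin, semaphorin and plexin genes, of which 22 are outside the 9. Of the 22, 19 passed the filter (Sema3g, Sema5a and Sema5b did not). Between the tumor groups 4 of the 19 were called higher in pTreg and 8 lower, beside 26.8% and 25.3% of all genes, with a median log2 fold change of -0.20. On the pan-T scale 18 were called lower, beside 97.0% of all genes. Against LN Treg 15 of 19 were called higher and 4 lower in pTreg (median 5.34, or 4.24 with genes lacking any LN Treg count set to their bound) and likewise in tTreg (5.45, or 4.73), beside 47.6% and 39.8%, and 48.1% and 42.3%, of all genes. With pan-T scaling 17 and 18 of the 19 were called higher and 1 lower in each, beside 91.3% and 96.7% of all genes higher and 4.15% and 1.03% lower. The filter was passed by many of these only through the tumor libraries where they are high, so these counts describe the genes that passed.

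Among them 13 reached a mean of 10 CPM in some group. The 3 secreted class 3 ligands among these 13 were almost without counts in LN Treg: Sema3f, the Nrp2 ligand, was at 0.0464 CPM there and at 106 ± 3.71 in pTreg and 145 ± 10.8 in tTreg. Sema3b was at 0.0874, 60.2 ± 2.63 and 86.2 ± 2.19 CPM. Sema3c had no count in LN Treg and 58.0 ± 2.57 and 63.1 ± 1.35 CPM in the tumor groups, at least 1278-fold and 1390-fold above a floor of 3 counts over the 4 LN Treg libraries (0.0454 CPM). All 3 were called lower in pTreg than in tTreg on the library scale, by -0.44 (Sema3f), -0.51 (Sema3b) and -0.11 (Sema3c). They were lower on the pan-T scale too, as were 97.0% of all genes. These 3 were named for reaching 10 CPM in some group, which only the tumor groups did, so their presence there follows from the choice. Which cells made these ligands and Nrp2 in the tumor libraries was not tested.

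Of the membrane ligands, Sema7a, the GPI-anchored ligand of Plxnc1, was at 7.22 ± 0.790 CPM in LN Treg, 124 ± 3.48 in pTreg and 143 ± 6.22 in tTreg, the opposite direction to Plxnc1 on the library scale. Sema6d, a Plxna1 ligand, was at 12.4 ± 0.973, 86.6 ± 1.10 and 61.1 ± 1.65 CPM and was one of the few called higher in pTreg than in tTreg (0.51). Sema4c, a Plxnb2 ligand, was also called higher in pTreg (2.52 ± 0.342, 34.2 ± 1.11 and 26.7 ± 1.11 CPM, 0.36). Sema6a (0.0637, 24.7 and 35.1 CPM) and Sema4g (0.525, 9.42 and 13.3 CPM) were called lower in pTreg than in tTreg.

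A few family genes went the other way. Those outside the 9 that were called lower than LN Treg in both tumor groups on the library scale were Sema3d, Sema4f, Sema6c and Plxna3. Sema3d and Sema6c, below 10 CPM in every group, were picked out after their values were seen, as were Flt1, Flt4, Pgf, Kdr and Vegfc further on. Sema3d, a secreted ligand, was at 1.86 ± 0.602 CPM in LN Treg, 0.0923 ± 0.0849 in pTreg and 0.186 ± 0.0916 in tTreg, and was the 1 family gene called lower in pTreg than in LN Treg on the pan-T scale (-2.02, SE 0.589, adjusted p = 0.00175). In tTreg it was higher than in LN Treg on that scale (2.24, adjusted p = 9.63e-05). Sema3d ran from 0 to 0.167 CPM in the pTreg libraries and from 0.108 to 0.328 CPM in tTreg, so both results rest on very few counts. Sema4f, a membrane ligand, was at 18.0 ± 1.04 CPM in LN Treg, 3.47 ± 0.351 in pTreg and 0.230 ± 0.0247 in tTreg, a step of 3.88 on the log2 scale between the tumor groups (SE 0.214, adjusted p = 3.83e-15). Per 100 pan-T counts it stood at 0.284 ± 0.0134, 0.262 ± 0.0262 and 0.172 ± 0.0208, and scaled in that way it was the 1 family gene of 28 not called between pTreg and tTreg (0.61, SE 0.279, adjusted p = 0.0547). Sema4f was called lower in tTreg than in LN Treg on both scales. Its tTreg level, from 0.216 to 0.274 CPM, also rests on few counts.

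Of the other plexins, Plxna2 was at 0.0319 CPM in LN Treg, 95.0 ± 1.94 in pTreg and 72.3 ± 2.36 in tTreg, and was called higher in pTreg (0.40). Plxnb1, also a B-class plexin and known receptor of Sema4d, was at 10.8 ± 1.15, 42.7 ± 1.77 and 58.8 ± 1.996 CPM and called lower in pTreg (-0.46). Plxna4 was at 0.0461, 13.6 and 13.6 CPM with a difference of 0.010 between the tumor groups (SE 0.0800, adjusted p = 0.931). Plxna3 was the plexin outside the 9 that was lower in both tumor groups than in LN Treg on the library scale, at 15.3 ± 0.829, 8.45 ± 1.18 and 10.7 ± 0.525 CPM, and it was higher on the pan-T scale.

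**Figure D5:**
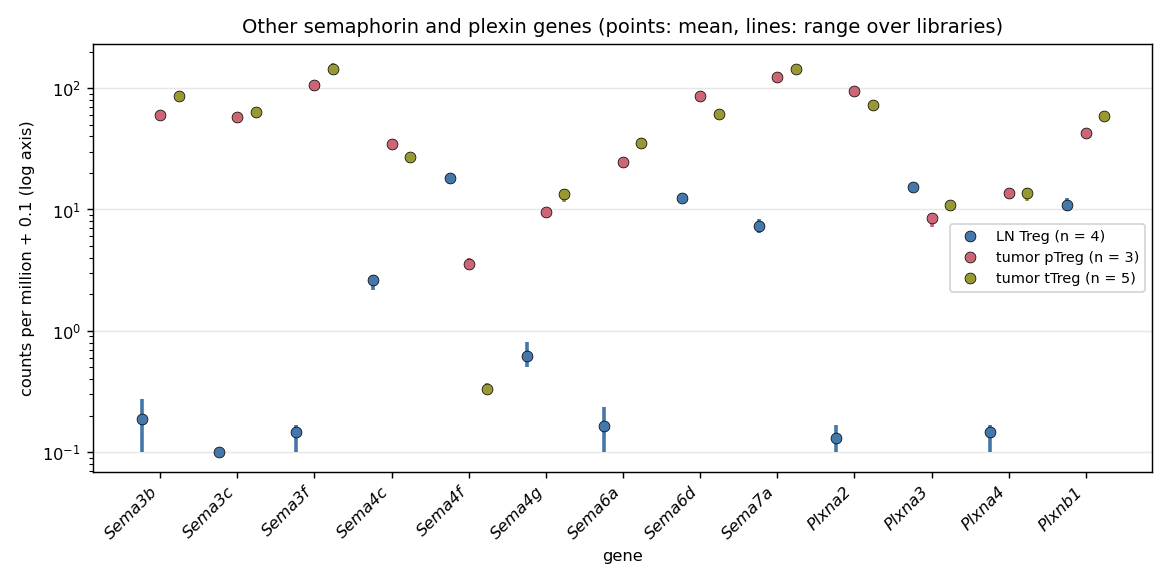
The 13 other semaphorin and plexin genes with at least 10 CPM in a group, as group means of CPM + 0.1 on a log axis with lines over the range of the libraries. Sema3b, Sema3c, Sema3f, Sema6a, Plxna2 and Plxna4 lie near 0 CPM in LN Treg and above 10 CPM in both tumor groups, while Sema4f steps down from LN Treg to pTreg to tTreg.

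Genes that work with the 9 were taken from 2 lists. Of 15 other ligands and receptors, 14 were tested (Timd2 was not): 5 were called higher and 4 lower in pTreg against tTreg (median -0.053), and 13 higher and 1 lower in each tumor group against LN Treg (medians 3.32 and 2.55). Over all genes tested the shares called higher and lower were 26.8% and 25.3%, 47.6% and 39.8%, and 48.1% and 42.3% in these 3 comparisons. Met, Flt1, Flt4, Pgf, Kdr, Itga1 and Vegfc passed the filter only through the tumor libraries. Their LN Treg means were 0.0487, 0.176, 0.0172, 0.107, 0.341, 0.355 and 0.377 CPM in that order. For these genes the filter favours higher calls against LN Treg, so the counts describe the genes that passed. Pan-T scaling put all 14 lower in the first and all 14 higher in the other two, as it did 97.0%, 91.3% and 96.7% of all genes. Vegfa, the growth factor that binds Nrp1, was at 1.45 ± 0.296 CPM in LN Treg, 162 ± 4.32 in pTreg and 180 ± 5.80 in tTreg, with log2 fold changes of 6.90 and 7.04 against LN Treg. Met, the receptor of hepatocyte growth factor that associates with B-class plexins, was at 0.0487, 21.7 ± 1.48 and 27.2 ± 1.22 CPM (8.79 and 9.10). L1cam, an adhesion molecule that associates with Nrp1, went the other way at 52.6 ± 0.777, 14.9 ± 0.523 and 2.89 ± 0.266 CPM, higher in pTreg than in tTreg by 2.38 and lower in tTreg than in LN Treg by -4.09. Itga1, the integrin chain that binds Sema7a, was highest in pTreg, at 0.355 ± 0.160, 12.3 ± 1.27 and 1.54 ± 0.242 CPM (3.00 against tTreg and 5.22 against LN Treg).

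Of 20 genes of plexin signalling, 8 were called higher and 5 lower in pTreg against tTreg (median -0.007), 12 higher and 6 lower in pTreg against LN Treg (median 0.25), and 13 higher and 6 lower in tTreg against LN Treg (median 0.20). The shares of all genes are those given with the ligands and receptors, so the 5 of 20 lower in pTreg than in tTreg are near the 25.3% of all genes. On the pan-T scale all 20 were lower in the first and all 20 higher in the other two, where 97.0%, 91.3% and 96.7% of all genes did the same. Fyn, the kinase that acts downstream of A-class plexins and of the T cell receptor, was at 512 ± 3.34 CPM in LN Treg, 127 ± 3.07 in pTreg and 34.7 ± 0.965 in tTreg, 1.88 higher in pTreg than in tTreg. Fes, a kinase of myeloid cells that acts below plexins, was at 2.93 ± 0.374, 101 ± 5.69 and 76.8 ± 1.63 CPM (5.21 and 4.80 against LN Treg). Mical1, the oxidoreductase that takes actin filaments apart, was at 81.1 ± 4.86, 57.4 ± 1.46 and 37.8 ± 1.15 CPM, 0.61 higher in pTreg than in tTreg.

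Likeness of pattern was measured as the root mean square difference of log2 CPM, each gene centred on its own mean over the 12 libraries, among 9367 candidate genes. The 12 libraries fall into 3 groups, so the measure mostly reflects the group means. Nearest to Nrp1 were Etaa1 (0.0438), Nek7 (0.0453) and Zc3h13 (0.0466), and nearest to Sema4d were Elf1 (0.0576), H2-K1 (0.0602) and Arc (0.0693). Nrp2 was nearest to Atp6ap2 (0.0549), Egr2 (0.0668) and Nampt (0.0697), and Plxna1 to Zfp703 (0.0592), Scd2 (0.0738) and Klf9 (0.0752). The distances were larger for Plxnb2, whose nearest were Tns4 (0.0957), Cx3cl1 (0.126) and Slc15a3 (0.127). Sema4a was near to Mkrn2 (0.0498) and Unc45a (0.0528), Sema4b to Clpx, Prkab1 and Clptm1l (0.0441 to 0.0471), Plxnc1 to Acss2, Nr2c2 and Tsc22d3 (0.0676 to 0.0694), and Plxnd1 to Tle4, Arhgap17 and Alkbh5 (0.0613 to 0.0654). Within the 9, Sema4b and Plxnd1 (0.225057) and Sema4d and Plxnc1 (0.225358) were closest, and Sema4d and Plxnb2 were farthest apart (3.76).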

How the data were processed

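Total RNA was extracted with TRIzol from sorted cells and sequenced on a BGISEQ instrument, per the labels' protocols. The authors deposited expected counts as whole numbers and FPKM values for each gene. STAR 2.7.11a, RSEM 1.3.3, DESeq2 and the build GRCm38 (mm10) are named in the submitters' processing notes, and the annotation and strand setting are not given in the sources used here. RSEM shares reads between isoforms, so FPKM also depends on its length estimate.

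The expected counts were tested with edgeR 4.0.16 in R 4.3.3: TMM factors, filterByExpr by group, quasi-likelihood F tests over 12 libraries with group as the only term, Benjamini-Hochberg adjustment over 15705 of 27279 genes with any count, called at adjusted p below 0.05. CPM is given on library totals, and fold changes include TMM factors. The second scaling set the library size to the summed counts of 18 pan-T genes. Shares were compared by exact permutation (scipy 1.17.1). Alternatives used DESeq2 1.42.0, limma 3.58.1 on log2(FPKM + 1) or log2(FPKM + 0.1), RLE factors, library totals, CD3 counts, other filters, a replicate block and leaving out each library. Replicate pairs differed by more than sampling noise (chi-square per degree of freedom of 1.62 to 3.74). The edgeR script was tested on simulated counts.

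The 9 genes and all lists were chosen with earlier results of these data known. All 9 are named, with other family genes of at least 10 CPM in a group, up to 4 called genes per comparison of the ligand, receptor and signalling lists together with the largest change and at least 10 CPM, the 2 highest of each marker list, and the 3 nearest in pattern to each of the 9, of which 1 is not reported here. Gene positions are from GENCODE vM21 (GRCm38). Intervals and floors cover counting error only.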

Additional observations from a re-analysis of the deposited data

Results flagged for a closer look

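Of 36 groups of 4 or more libraries examined for a value far from the others, 1 stood out, where chance gives about 1 in 20. Plxnc1 in tumor tTreg replicate 4 was at 2.94 FPKM, and the other 4 tTreg libraries were at 2.0 to 2.22 FPKM, so the gap took up 0.766 of the range (critical value 0.71). The count of the same library, 14.0 CPM, lay inside the range of its group, and the transcript length implied by the deposited values was 4750 bases there and 6142 to 7022 bases in the other 4.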

How the results depend on the processing

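Scaling to pan-T or CD3 counts moved the counts of the 9 genes called to 0 higher and 9 lower for pTreg against tTreg, and to 9 higher and 0 lower for pTreg and for tTreg against LN Treg. The median of all genes moved to -3.33 (pan-T) and -3.57 (CD3), 2.27 and 2.31, and 5.57 and 5.86 in these comparisons, and higher calls made up 0.587% and 0.397%, 95.7% and 95.9%, and 98.9% and 99.2% of all calls, against 51.4%, 54.5% and 53.2% before. Log2 fold changes reversed as follows, pan-T then CD3. For pTreg against tTreg they became -2.86 and -3.11 (Nrp1), -3.29 and -3.54 (Nrp2), -2.87 and -3.12 (Sema4a), -2.28 and -2.53 (Sema4d), -2.82 and -3.06 (Plxnc1), and -3.08 and -3.33 (Plxnd1). For pTreg against LN Treg they became 1.51 and 1.55 (Nrp1), 2.10 and 2.14 (Sema4b), 1.07 and 1.11 (Sema4d), and 0.75 and 0.79 (Plxnc1). For tTreg against LN Treg they became 4.38 and 4.66 (Nrp1), 5.11 and 5.40 (Sema4a), 3.35 and 3.64 (Sema4d), and 3.57 and 3.85 (Plxnc1). On FPKM with limma, the count lower in pTreg than in tTreg was 0 with either pseudocount and with a minimum mean of 1 FPKM, and the count higher was 3 with log2(FPKM + 1). Small differences that were not called also changed sign. Nrp2 for pTreg against tTreg was -0.018 with RLE factors, -0.017 with DESeq2, -0.0024 without pTreg replicate 2 and -0.0038 without pTreg replicate 3, in a leave-one-out range of -0.0038 to 0.085. Sema4a for pTreg against LN Treg was -0.017 with library totals, -0.043 with log2(FPKM + 1) with or without the FPKM minimum, and -0.044 with log2(FPKM + 0.1). Sema4b for tTreg against LN Treg was -0.062 with library totals, -0.0096 with a filter at 5 CPM, -0.069 with log2(FPKM + 1) with or without the minimum, and -0.072 with log2(FPKM + 0.1). The Plxna1 share of the plexins for pTreg against tTreg went from 1.73 points on FPKM to -0.31 points on counts. The cause was not tested. With RLE factors 3572 genes were called higher and 4872 lower in pTreg against tTreg, in place of 4204 and 3980. Leaving out each library gave 5 to 5 higher and 2 to 3 lower for pTreg against tTreg, 4 to 5 higher and 3 to 3 lower for pTreg against LN Treg, and 4 to 4 each way for tTreg against LN Treg. The share tests of tTreg against LN Treg passed the threshold with all libraries and in none of the 72 tests that left out 1 of their own libraries, which leaves fewer of them. No filter, and fits on only the groups compared, left all 27 fold changes on their side of the threshold.

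Same-numbered libraries did not deviate together (correlations of -0.0529 to 0.0582 over 11053 genes). With so few libraries a group, this cannot tell whether same-numbered libraries share an animal. Library names of the tumor groups also share numbers, and nothing states whether these mark a shared tumor. With the replicate number as a block, the counts of the 9 called stayed at 5 and 2, 4 and 3, and 4 and 4, and 3932 genes were called higher and 3563 lower between the tumor groups.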
